A study of Mus musculus with 6 samples.

Results

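The genes described here are 38 components of the core autophagy machinery, taken by name from a list that runs from the ULK1 initiation complex through conjugation and cargo receptors to fusion with the lysosome. All 38 were found among the 51912 gene IDs of the deposited table. RNA was sequenced from mouse bladder tumor organoids, 3-dimensional cultures of tumor cells, of strain C57BL/6. Organoids exposed to SRT1720, a synthetic compound developed to activate the protein deacetylase SIRT1, gave 3 libraries, and organoids given vehicle gave 3. The sources used here do not give the dose, the exposure time, the vehicle, the origin of the tumors or whether replicates came from separate cultures or animals. The p-values therefore measure only the spread between these libraries, which may be technical. In bulk RNA, a change in the mix of cells and a change in RNA per cell cannot be told apart.

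Autophagy encloses cytoplasm in a double membrane, the autophagosome, and delivers it to the lysosome for breakdown. A kinase complex built around ULK1 starts the process when the nutrient sensor mTORC1 is inactive or the energy sensor AMPK is active, and a lipid kinase complex containing Beclin 1 then marks the growing membrane. Ubiquitin-like conjugation attaches proteins of the LC3 and GABARAP family (the ATG8 family) to the membrane, where cargo receptors such as p62 bind them. Much of this control acts on proteins, and SIRT1 is known to deacetylate several autophagy proteins. The values below are mRNA levels and do not show autophagic flux.

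Levels are printed in TPM, reads scaled by gene length and library, as the deposited file labels them, and values per library are in the order of replicates 1, 2 and 3. The deposited columns summed to 161231 to 171577, less than complete TPM columns do, so levels and limits are on a relative scale. A mean of at least 1 TPM on this scale over the 6 libraries was required for a test, which 32 of the 38 members reached. Just inside that limit was Atg4a at a mean of 1.03 TPM and just outside it was Rb1cc1 at 0.959 TPM. The 6 members below it (Ulk2, Rb1cc1, Pik3r4, Atg9a, Atg7 and Atg16l1) still had 202 to 1483 reads per library, recovered from the steps of the deposited values. Over all 38 members a value rested on 86 to 24231 reads.

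The libraries were 18249169 to 22839150 recovered reads deep. Each library resembled one of the other group most (Pearson r over the genes tested 0.957 for SRT1720 1 and Vehicle 2, 0.965 for SRT1720 2 and Vehicle 1, 0.961 for SRT1720 3 and Vehicle 3). SRT1720 1 and Vehicle 2 stood apart in Krt5, a basal epithelial keratin, at 16.4 and 9.61 TPM against 425 to 1120 TPM in the other 4. Of 10 epithelial markers 9 reached a mean of 1 TPM. None of 8 fibroblast, 6 endothelial or 6 smooth muscle markers did, and 2 of 9 leukocyte markers did. In single libraries the fibroblast marker Dcn reached 1.62 TPM (SRT1720 2) and 2.62 TPM (Vehicle 1). The smooth muscle marker Acta2 reached 4.26 TPM in Vehicle 3 and did not pass 0.255 TPM elsewhere. The summed leukocyte markers ranged from 1.08 to 11.6 TPM with SRT1720 and from 2.69 to 16.1 TPM with vehicle, and Lyz2, the larger part of the high sums, was at 10.5 TPM in SRT1720 2, at 14.3 TPM in Vehicle 1 and at 0 in the other 4. Cd68, a macrophage lysosome protein gene and the other leukocyte marker above the limit, was at 1.31, 0.73 and 1.03 TPM with SRT1720. With vehicle it was at 1.45, 1.92 and 3.09 TPM, so it was lower with SRT1720 without overlap, as were the 6 members named below. The other leukocyte markers overlapped between groups. In Vehicle 3, where Cd68 was highest, Lyz2, Ptprc, Adgre1 and Itgam were at 0. Cd3e and Emcn were at 0 in every library. The part of these cells in the results below was not tested.

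The upstream sequences of 4 members are shown because 2 of them, Calcoco1 and Atg13, were among the members whose groups did not overlap, and the other two, Atg3 and Atg5, carry a CACGTG motif. All are from RefSeq on GRCm38.p6, lie within the 250 bases before the gene's start, and hold no exon annotated in GENCODE M21. Capitals mark CACGTG, the E-box that is also the core of the element bound by TFEB, a master regulator of lysosome and autophagy genes.
Calcoco1 (chr15:102722179-102722428, minus strand): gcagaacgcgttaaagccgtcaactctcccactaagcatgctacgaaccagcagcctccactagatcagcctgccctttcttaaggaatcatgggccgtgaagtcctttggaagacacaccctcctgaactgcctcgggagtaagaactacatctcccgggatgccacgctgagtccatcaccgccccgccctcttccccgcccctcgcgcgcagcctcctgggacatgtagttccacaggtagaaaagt
Atg13 (chr2:91710593-91710842, minus strand): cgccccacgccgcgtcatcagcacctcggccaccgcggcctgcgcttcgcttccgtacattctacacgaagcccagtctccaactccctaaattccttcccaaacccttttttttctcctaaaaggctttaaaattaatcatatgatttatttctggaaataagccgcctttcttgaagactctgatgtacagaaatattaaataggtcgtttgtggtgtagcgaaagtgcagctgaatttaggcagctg
Atg3 (chr16:45158707-45158784, plus strand): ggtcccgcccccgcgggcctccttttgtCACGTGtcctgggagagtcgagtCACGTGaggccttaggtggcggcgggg
Atg5 (chr10:44268089-44268338, plus strand): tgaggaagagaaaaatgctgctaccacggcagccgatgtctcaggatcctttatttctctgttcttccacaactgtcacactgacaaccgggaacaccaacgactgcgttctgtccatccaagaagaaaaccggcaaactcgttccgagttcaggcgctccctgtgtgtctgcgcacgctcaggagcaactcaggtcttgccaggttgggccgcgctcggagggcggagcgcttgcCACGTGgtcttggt
RefSeq gave a start window, 250 bases before to 50 after the start, for 31 of the 38 members. CACGTG, which reads the same on both strands, was in 4 of the 37 windows of these members (Atg14, Atg3, Atg5 and Atg7) and in 7.15% of all 32851 windows. The Atg7 window begins at 114670846, inside the GENCODE M21 gene, which begins at 114643097 on the plus strand. The Atg14 window likewise begins at 47568684, inside the gene, which begins at 47570649 on the minus strand. The log2 fold changes of these carriers went both ways, at −0.41 for Atg14, 0.46 for Atg3, 0.24 for Atg5 and −0.008 for Atg7, which was below the limit for a test. Whether the motif goes with a direction was not tested. The longer CLEAR palindrome, which contains CACGTG and is the fuller TFEB element, was in 0 member windows and in 0.326% of all windows. TGTTTAC, a forkhead motif, and TGATGNAA, an ATF4 composite element, each searched on both strands, were in 0 member windows and in 3.65% and 3.97% of all windows. These matches are letters in a window and not binding sites.

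The one comparison of the study is SRT1720 against vehicle, and the series title places it in the question of how SRT1720 slows bladder cancer growth. No autophagy member was called at an adjusted p under 0.05 by limma, and 0% of the 9287 genes tested were called. At an unadjusted p under 0.05 limma gave 4 members, Gabarapl1, Map1lc3a, Calcoco1 and Vmp1, all lower with SRT1720, where 4.55% of all genes tested were lower and 7.86% higher at that level and 12.4% were past it in either direction. Voom on the recovered reads also called 0 and gave 4 at the unadjusted level, where 1125 of the 9287 genes tested were past it. Other alternatives gave other counts, such as 7 with library weights (2056 of all genes) and 2 without SRT1720 3 (837 of all genes). The library weights were 5.6 for SRT1720 2 and 0.489 to 1.299 for the other libraries. Of the 32 tested members, 22 had a log2 fold change below 0 (68.8%), against 45.2% of all genes tested, and the median was −0.18 against 0.04. The members were chosen with earlier results of these data known, so these counts are a description and not independent evidence of direction.

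The groups did not overlap in 6 of the 32 tested members (Gabarapl1, Map1lc3a, Calcoco1, Vmp1, Atg13 and Nbr1), and in each of these the 3 SRT1720 values were below the 3 Vehicle values. Over all genes tested 19.9% did not overlap, 7.75% lower and 12.1% higher, so the members' share of 18.8% was near the background in total, while 6 were lower and 0 higher. With median-of-ratios scaling or quantile normalization the count was 9, adding Atg2b, Atg10 and Tax1bp1, all lower. Under these scalings 19.7% of all genes tested did not overlap, and 9.82% and 9.25% were lower without overlap. The count was 13 (12 lower, 1 higher) without SRT1720 1, 12 (9 lower, 3 higher) without Vehicle 1 and 13 (11 lower, 2 higher) without Vehicle 3. There the background was 32.9%, 30.4% and 30.3%, and 15.3%, 11.1% and 13.1% of all genes tested were lower without overlap.

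**Figure D1:**
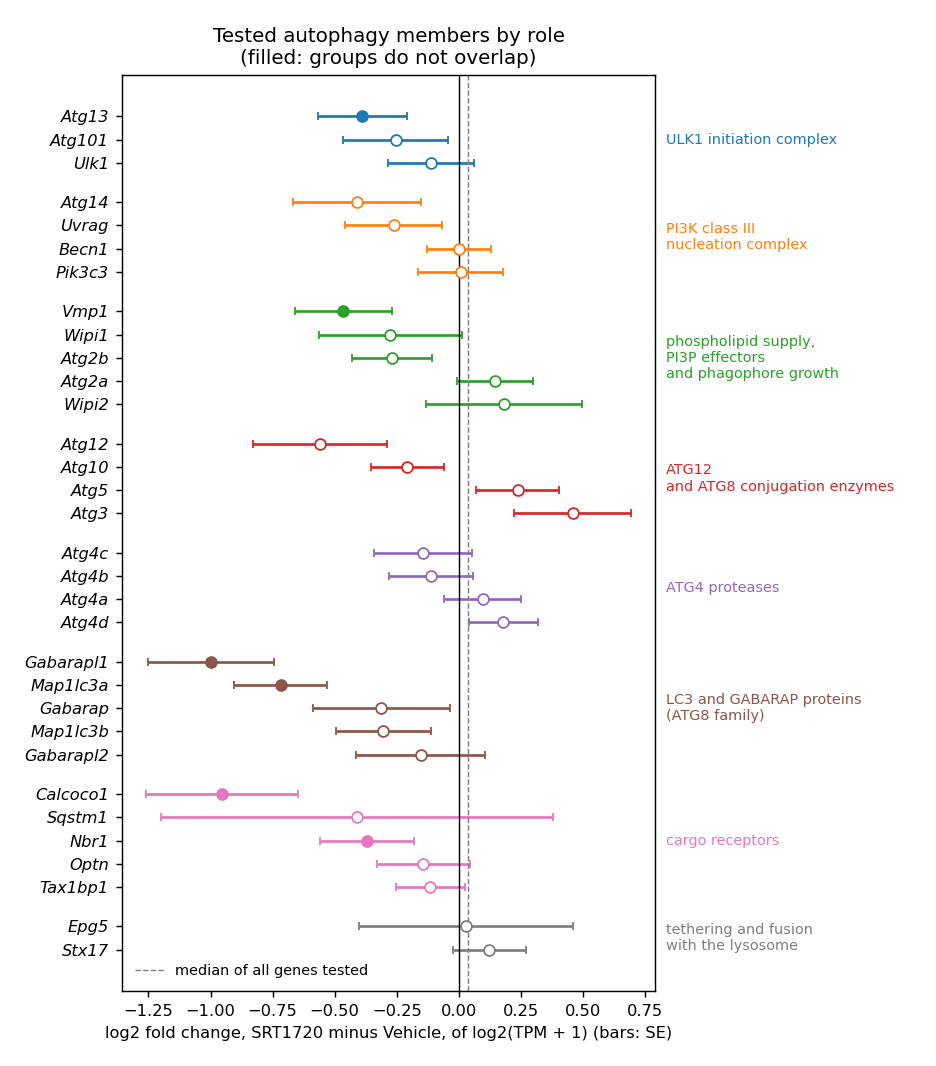
Each point is the log2 fold change (SRT1720 minus Vehicle, on the log2(TPM + 1) scale) of one of the 32 tested members, grouped by role, with its standard error as a bar. Filled points mark the 6 members whose groups did not overlap, all to the left of 0, and the dashed line is the median of all genes tested at 0.04.

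The 2 members with the smallest p-values, Gabarapl1 and Map1lc3a, belong to the ATG8 family. All 5 family members were tested and all 5 log2 fold changes were below 0, with a median of −0.31. Over all genes tested 45.2% were below 0, and whether the family differs from other genes was not tested. Gabarapl1, which encodes a GABARAP protein of the autophagosome membrane, was at 7.83, 6.28 and 3.84 TPM with SRT1720 and at 12.1, 14.7 and 11 TPM with vehicle. Every SRT1720 library was below every Vehicle library, and SRT1720 3 was the lowest. The means were 5.98 ± 2.01 TPM and 12.6 ± 1.88 TPM (SD, n = 3), a ratio of 0.474. The log2 fold change was −0.999 (SE 0.25, limma adjusted p = 0.29). The gene (ENSMUSG00000030161) lies on GRCm38 chromosome 6 from 129533160 to 129542346.

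Map1lc3a, encoding LC3A, was at 7.27, 6.32 and 8.12 TPM with SRT1720 and at 10.5, 12.5 and 14.9 TPM with vehicle. The SRT1720 libraries lay close together and below all Vehicle libraries. The means were 7.24 ± 0.90 TPM and 12.6 ± 2.25 TPM (SD, n = 3), with a log2 fold change of −0.72 (SE 0.19, limma adjusted p = 0.291). It (ENSMUSG00000027602) lies on chromosome 2 from 155276297 to 155278073. Gabarapl1 and Map1lc3a were the 2 tested members whose difference between groups exceeded the full range of log2 values within each group. The share of all genes tested that did so was not computed, so this does not set the 2 members apart from other genes. For every single gene the exact two-sided permutation test of 3 libraries against 3 cannot go below p = 0.1, and the 6 members that did not overlap were at that limit.

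The other three ATG8 genes overlapped between groups. Map1lc3b, encoding LC3B, the usual marker protein of autophagosomes, was at 3.50, 2.96 and 2.94 TPM with SRT1720 and at 2.97, 4.63 and 4.91 TPM with vehicle. Vehicle 2 and Vehicle 3 were above all other libraries, while Vehicle 1 was level with SRT1720 2 and 3. Gabarap was at 16.1, 13.2 and 9.11 TPM with SRT1720 and at 16.8, 19.9 and 11.6 TPM with vehicle, lowest in replicate 3 of each group. Gabarapl2 was at 6.98, 4.84 and 3.85 TPM with SRT1720 and at 4.26, 7.68 and 5.82 TPM with vehicle, so that its highest libraries were SRT1720 1 and Vehicle 2. The direction of Gabarapl2 turned when SRT1720 3, Vehicle 2, or both SRT1720 3 and Vehicle 3 were left out. The other four ATG8 genes stayed below 0 in every alternative that tested them.

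**Figure D2:**
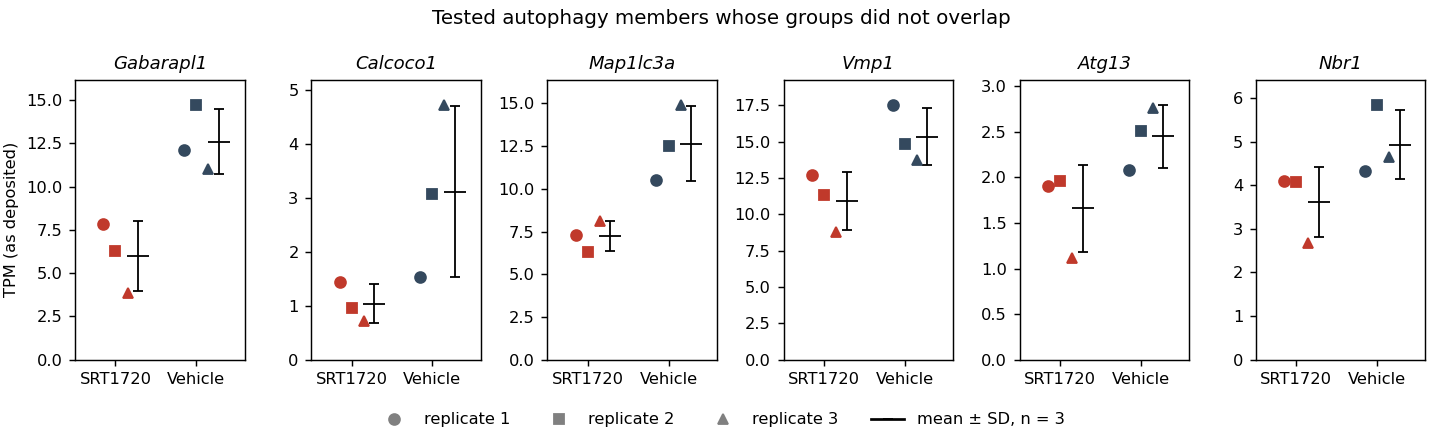
TPM as deposited (vertical axes, each from 0) of the 6 tested members whose groups did not overlap, by library, with replicate numbers as symbols and the mean ± SD of 3 libraries beside them. In each panel the 3 SRT1720 libraries sit below the 3 Vehicle libraries, by the smallest distance in Calcoco1, Atg13 and Nbr1, where the nearest libraries were 1.43 and 1.54, 1.96 and 2.08, and 4.09 and 4.33 TPM.

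Cargo receptors link ubiquitinated or other cargo to the ATG8 proteins. All 5 receptor genes were tested and had log2 fold changes below 0, their median was −0.37, and 2 of them, Calcoco1 and Nbr1, did not overlap. Over all genes tested 45.2% were below 0 and 19.9% did not overlap, 7.75% lower. Whether the receptor genes differ from other genes was not tested. Calcoco1, which encodes a receptor for fragments of the endoplasmic reticulum, was at 1.43, 0.955 and 0.721 TPM with SRT1720 and at 1.54, 3.08 and 4.72 TPM with vehicle. Its SRT1720 1 and Vehicle 1 libraries nearly met, and Vehicle 3 was the highest. The means were 1.04 ± 0.36 TPM and 3.11 ± 1.59 TPM (SD, n = 3), a ratio of 0.333. The log2 fold change was −0.95 (SE 0.31, limma adjusted p = 0.335). It came to −0.56 after leaving out both SRT1720 3 and Vehicle 3. With the smaller pseudocount of 0.1 it was −1.42. Calcoco1 (ENSMUSG00000023055) lies on chromosome 15 from 102706777 to 102722178.

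Nbr1, a receptor related to p62, was at 4.09, 4.08 and 2.68 TPM with SRT1720 and at 4.33, 5.84 and 4.64 TPM with vehicle. SRT1720 3 was well below the other libraries, and SRT1720 1 and 2 were just under Vehicle 1. Its log2 fold change was −0.37 (SE 0.19, limma adjusted p = 0.484), and −0.21 without SRT1720 3. Tax1bp1, a ubiquitin-binding receptor, was at 5.47 to 6.15 TPM in SRT1720 libraries and 6.05 to 6.70 TPM in Vehicle libraries. Optn, encoding the mitophagy receptor optineurin, had means of 1.54 ± 0.48 TPM and 1.80 ± 0.40 TPM (SD, n = 3, SRT1720 first).

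Sqstm1 encodes p62, a receptor that is itself degraded by autophagy and whose gene answers to oxidative stress. It was at 46.6, 14.4 and 8.86 TPM with SRT1720 and at 16.0, 71.1 and 12.9 TPM with vehicle. SRT1720 1 and Vehicle 2 stood far above the other 4 libraries, which did not pass 16.0 TPM, and the groups overlapped. The range over the 6 libraries was 8.02-fold, the widest of the 38 members, and the standard error of its difference (0.79 on the log2 scale) was larger than the difference itself. Its direction turned without SRT1720 3 and without Vehicle 2. The other four receptor genes stayed below 0 in every alternative that tested them.

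Epg5, a tether that joins autophagosomes to lysosomes, was likewise higher in SRT1720 1 and Vehicle 2 than in the other 4 libraries, at 4.83, 1.89 and 1.13 TPM with SRT1720 and at 1.87, 3.98 and 1.36 TPM with vehicle. Wipi2, which binds the lipid mark and recruits the conjugation machinery, was at 6.60 TPM in SRT1720 1 and 4.25 TPM in Vehicle 2 and between 2.55 and 3.0 TPM in the others. In 5 of the 32 tested members (Wipi2, Gabarapl2, Sqstm1, Optn and Epg5) SRT1720 1 and Vehicle 2 were the highest libraries, and in 4 (Atg101, Pik3c3, Wipi1 and Atg4c) the lowest. Together these are 28.1% of the members, against 28.5% of all genes tested. These are the libraries low in Krt5, and how far that difference shapes the member values was not tested. In SRT1720 3 and Vehicle 3, Ulk1, Wipi1 and Atg4b were highest and Gabarap, Sqstm1 and Epg5 lowest, 18.8% of the members against 27.7% of all genes tested. Stx17, a SNARE of autophagosome fusion, averaged 1.95 ± 0.39 TPM and 1.69 ± 0.11 TPM (SD, n = 3, SRT1720 first).

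**Figure D3:**
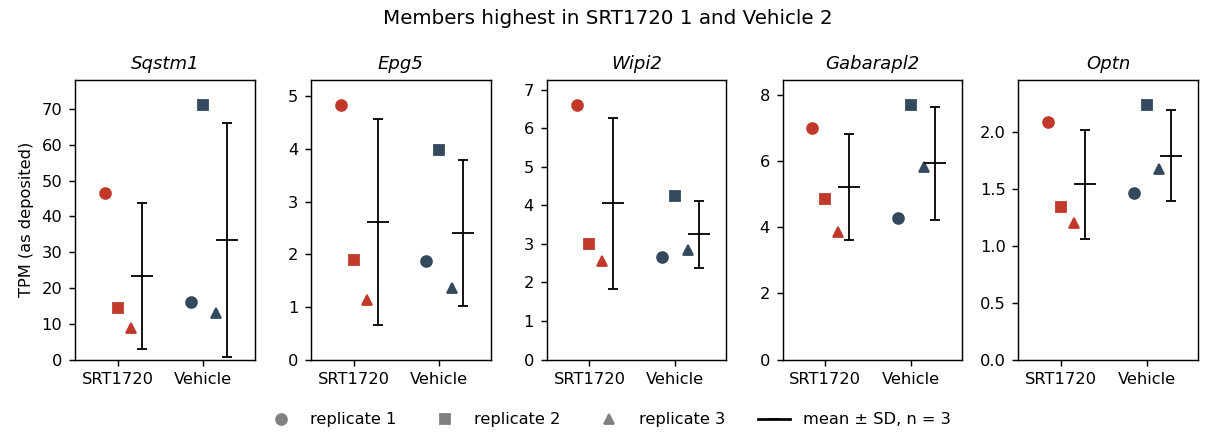
TPM as deposited (vertical axes, each from 0) by library for the 5 tested members that were highest in SRT1720 1 and Vehicle 2, with replicate numbers as symbols and the mean ± SD of 3 libraries beside them. In each panel one circle (SRT1720 1) and one square (Vehicle 2) stand above the other 4 libraries, and Sqstm1 runs from 8.86 to 71.1 TPM.

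Among the genes of the initiation complex, Ulk1, the kinase, was at 2.33, 2.95 and 3.13 TPM with SRT1720 and at 2.51, 3.01 and 3.86 TPM with vehicle, with overlapping groups. Atg13, the adaptor subunit that mTORC1 phosphorylates, was at 1.91, 1.96 and 1.11 TPM with SRT1720 and at 2.08, 2.51 and 2.76 TPM with vehicle. The groups did not overlap, and SRT1720 3 was the lowest. The log2 fold change was −0.39 (SE 0.18, limma adjusted p = 0.443), −0.23 without SRT1720 3 and −0.16 when Vehicle 3 was left out as well. Atg101, which stabilizes ATG13, was at 12.9 to 13.5 TPM in SRT1720 libraries and 12.6 to 20.9 TPM in Vehicle libraries. Rb1cc1, the scaffold FIP200, stayed under the limit for a test, and its libraries at 0.998, 0.893 and 0.703 TPM with SRT1720 were below those at 1.04, 1.1 and 1.01 TPM with vehicle. Ulk2 was at 0.738 ± 0.24 TPM and 0.964 ± 0.44 TPM (SD, n = 3).

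In the lipid kinase complex no gene was free of overlap. Becn1, encoding Beclin 1, was at 1.88, 1.56 and 1.56 TPM with SRT1720 and at 1.83, 1.53 and 1.64 TPM with vehicle, and its highest library was 1.23 times its lowest. Pik3c3, the catalytic subunit, had a mean of 1.86 TPM in both groups, and both genes changed sign around 0 with the scaling. Atg14, which targets the complex to autophagosome formation, was at 1.98, 1.28 and 1.55 TPM with SRT1720 and at 1.34, 3.21 and 3.14 TPM with vehicle. Vehicle 2 and 3 were above all other libraries and Vehicle 1 was among the low ones. Uvrag, the subunit of the endosomal form, was at 1.40 ± 0.40 TPM and 1.88 ± 0.52 TPM, and Pik3r4, the regulatory subunit, at 0.846 ± 0.11 TPM and 0.748 ± 0.14 TPM (SD, n = 3).

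Of the genes that feed membrane growth, Vmp1 did not overlap between groups. It encodes an endoplasmic reticulum protein that moves lipids between membrane leaflets, and was at 12.7, 11.3 and 8.75 TPM with SRT1720 and at 17.5, 14.8 and 13.7 TPM with vehicle. The nearest libraries of the groups were at 12.7 and 13.7 TPM. Its log2 fold change was −0.47 (SE 0.19, limma adjusted p = 0.4). The span of Vmp1, on chromosome 11 from 86583865 to 86683836, also holds Mir21a on the same strand, and the sources used here do not say how reads shared between transcripts were assigned. Wipi1, a lipid-binding WIPI protein, reached 7.38 TPM in Vehicle 3 and was at 2.98 to 4.51 TPM in the other libraries. The lipid transfer genes Atg2a and Atg2b had log2 fold changes of opposite sign, at 1.54 ± 0.09 against 1.31 ± 0.35 TPM and at 1.35 ± 0.20 against 1.84 ± 0.44 TPM, and Atg9a, the lipid scramblase, was at 0.577 ± 0.12 against 0.680 ± 0.13 TPM (SD, n = 3, SRT1720 first).

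The conjugation genes pointed both ways. Atg3, the E2-like enzyme that joins ATG8 proteins to lipid, was at 4.29, 4.06 and 3.22 TPM with SRT1720 and at 3.80, 2.38 and 1.68 TPM with vehicle, and its log2 fold change of 0.46 was the highest of the tested members. Vehicle 1 lay within the SRT1720 range, so the groups overlapped. Atg5, the acceptor of ATG12, averaged 7.26 ± 0.95 TPM and 6.01 ± 0.80 TPM (SD, n = 3, SRT1720 first). Atg12, the ubiquitin-like partner, was at 17.4, 9.40 and 8.83 TPM with SRT1720 and at 15.4, 17.8 and 18.6 TPM with vehicle. SRT1720 2 and 3 were well below the other 4 libraries, which SRT1720 1 joined. Atg10, the E2-like enzyme for ATG12, was at 1.06 ± 0.11 against 1.39 ± 0.31 TPM, Atg7, the E1-like enzyme, at 0.942 ± 0.06 against 0.954 ± 0.08 TPM, and Atg16l1, which places the enzyme on the membrane, at 0.909 ± 0.01 against 0.873 ± 0.14 TPM (SD, n = 3, SRT1720 first). The 4 ATG4 proteases, which trim ATG8 proteins before conjugation and release them afterwards, had log2 fold changes from −0.14 for Atg4c to 0.18 for Atg4d, and none was free of overlap.

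**Figure D4:**
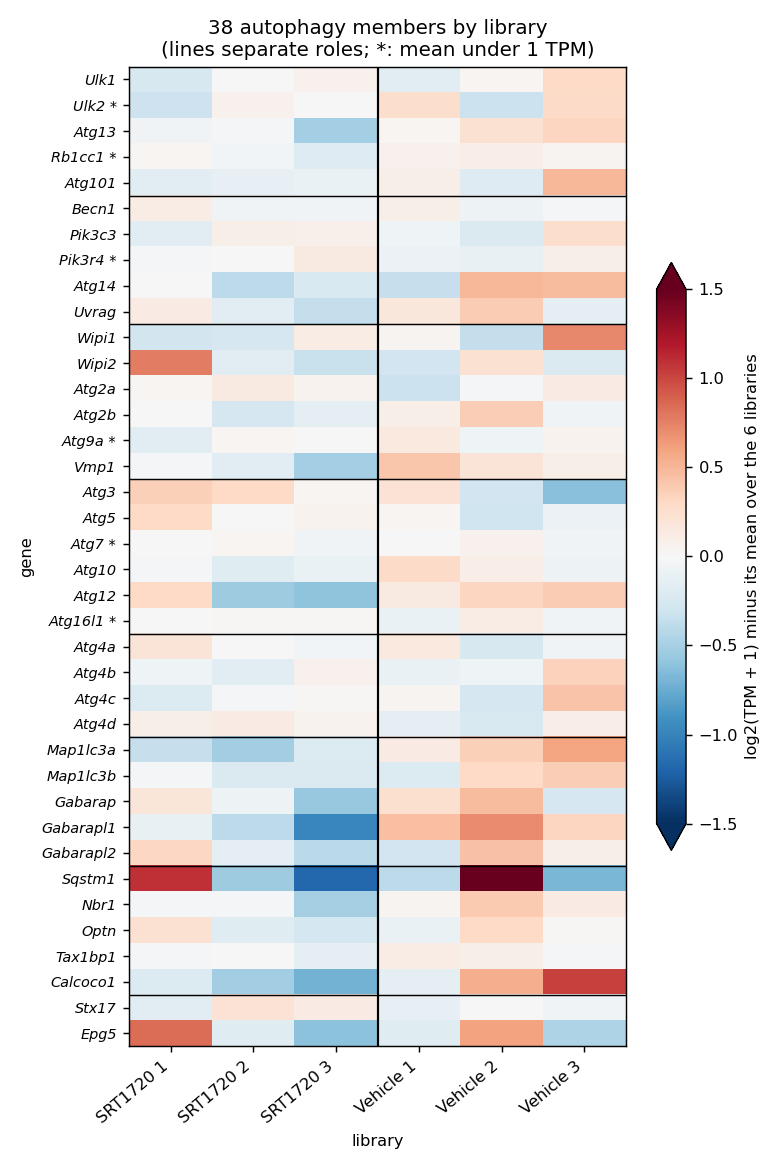
Rows are the 38 members in order of role and columns the 6 libraries, and colour gives log2(TPM + 1) minus the gene's mean over the 6 libraries, from blue (below) to red (above). Sqstm1 is high in SRT1720 1 and Vehicle 2, while Gabarapl1 and Map1lc3a are blue in all 3 SRT1720 columns and red in all 3 Vehicle columns. Asterisks mark the 6 members below 1 TPM.

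Levels of different members depend on the gene length used. The 2 scales given below also differ in their total, since the deposited columns summed to 161231 to 171577. Only the order of members can therefore be set side by side. The lengths behind the deposited values ran from 0.323 to 2.42 times the merged exon length in GENCODE M21 over the 38 members, with a median of 1.44 and 32 members above 1. As reads per kilobase of merged exon scaled to recovered depth (RPKM), Sqstm1 was highest at a mean of 157, followed by Gabarap at 68.9, Map1lc3a at 57.2, Vmp1 at 56.7 and Gabarapl1 at 40.4. On the deposited scale Sqstm1 at 28.3 TPM was followed by Atg101 at 14.8, Atg12 at 14.6, Gabarap at 14.4 and Vmp1 at 13.1 TPM. Ratios between libraries for one gene do not depend on this length. Gene spans of 19 of the 38 members overlap another annotated gene, among them Gabarapl1, Map1lc3b, Becn1, Sqstm1 and Vmp1, and the sources used here do not state whether counting used strand.

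The wider pathway of 85 genes, in 8 lists from nutrient sensors to fusion factors, was given the same fit. Of these, 68 were tested, 0 were called by limma and 7 had an unadjusted p under 0.05 (4 lower, 3 higher), while 33 had log2 fold changes below 0 and 35 above, with a median of 0.02. Over all genes tested 12.4% were past that unadjusted level, 4.55% lower and 7.86% higher. In 15 of the 68 (22.1%) the groups did not overlap, 7 lower (10.3%) and 8 higher (11.8%). This was near the share over all genes tested, 19.9%, with 7.75% lower and 12.1% higher. Whether the members and the wider pathway differ was not tested.

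Around mTORC1, the kinase complex that restrains autophagy when nutrients are plentiful, 21 of 25 genes were tested, with 11 below 0. Mlst8, a core subunit, was at 1.93 ± 0.35 against 1.11 ± 0.25 TPM. The Ragulator subunits Lamtor1 and Lamtor4, part of its lysosomal anchor, averaged 10.2 ± 1.08 against 6.75 ± 1.49 TPM and 6.02 ± 0.25 against 4.48 ± 0.74 TPM (SD, n = 3, SRT1720 first). These were higher in all 3 SRT1720 libraries than in any Vehicle library. Rragd, a Rag GTPase, was at 0.971, 0.470 and 0.478 TPM with SRT1720 and at 1.1, 3.32 and 1.17 TPM with vehicle, lower without overlap, and Rptor differed by −0.08 on the log2 scale, also without overlap. Mtor itself overlapped.

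Among 5 tested genes of AMPK and its upstream kinase, Prkag1, a regulatory subunit, was higher without overlap, at 4.68 ± 0.66 against 3.01 ± 0.37 TPM. Of the genes of mitophagy, the removal of mitochondria, Pink1, the kinase that marks damaged mitochondria, was at 1.58, 1.23 and 1.26 TPM with SRT1720 and at 2.31, 1.82 and 2.59 TPM with vehicle. Its log2 fold change was −0.46 (SE 0.15, limma adjusted p = 0.338). The mitophagy receptor gene Fundc1 was also lower without overlap, at 2.86 ± 0.26 against 3.52 ± 0.45 TPM, while Fkbp8 and Phb2 were higher, at 5.86 ± 0.18 against 4.27 ± 0.88 TPM and at 11.7 ± 0.20 against 8.96 ± 0.98 TPM (SD, n = 3, SRT1720 first).

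Zfyve1, whose product marks the membrane where autophagosomes form, was lower without overlap at 0.883 ± 0.22 against 1.55 ± 0.36 TPM. Tmem41b, which encodes a scramblase that works with VMP1, was higher, at 1.80 ± 0.20 against 1.32 ± 0.02 TPM, the opposite side from Vmp1. Ykt6, a fusion SNARE, was at 17.7 ± 1.55 against 13.8 ± 2.40 TPM, with SRT1720 3 and Vehicle 2 equal to 3 digits at 16.6 TPM. Ambra1 and Rtn3 differed by −0.08 and −0.13 on the log2 scale without overlap. None of the 4 tested transcriptional regulators (Tfe3, Foxo1, Foxo3 and Zkscan3) was free of overlap. Tfeb, at a mean of 0.656 TPM, stayed below the limit for a test. So did Sirt1, the target of the compound, at 1.29, 1.06 and 0.792 TPM with SRT1720 and at 0.728, 0.971 and 0.474 TPM with vehicle, with overlapping groups.

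**Figure D5:**
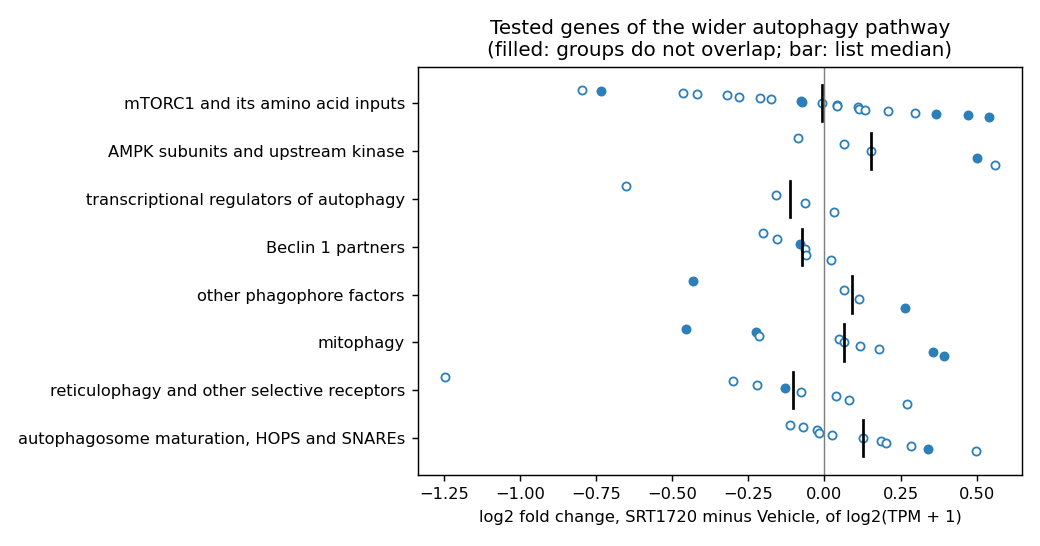
Each point is the log2 fold change (SRT1720 minus Vehicle, on the log2(TPM + 1) scale) of one of 68 tested genes of the wider pathway, in rows by list, with filled points for the 15 genes whose groups did not overlap and a bar at each list's median. Filled points fall on both sides of 0, 7 to the left and 8 to the right.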

How the data were processed

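The authors deposited 1 table of TPM values with a column per library, the unit taken from the table's name. The submitters' processing notes list STAR 2.6.0 and GRCm38 without saying what each was used for, and the sources used here give no counter, gene lengths or annotation release. The columns summed to 161231 to 171577, less than complete TPM columns do, so values were read as relative levels. Reads were recovered from the steps of the values (27713 of 27713 IDs above 0, whole within 0.001, smallest fitting length kept). Names and positions came from GENCODE M21, which matched 51719 of 51912 IDs.

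Each gene was tested with limma 3.58.1 in R 4.3.3 (mean trend) on log2(TPM + 1), keeping the 9287 genes whose average reached 1 TPM, and p-values were adjusted by Benjamini-Hochberg with a threshold of 0.05. This scale understates changes of low genes. The procedure was tested on simulated data with noise drawn independently for each library. Those data lack the resemblance of libraries across groups, so they do not show how the fit behaves here. Groups and replicate numbers came from sample titles, and all 6 libraries differed beyond sampling noise (mean chi-square per degree of freedom 80.2 to 192.8 within groups). Fold changes are given for tested members without overlap, values per library for those, the ATG8 family, Ulk1, Becn1 and Sqstm1, and wider pathway genes are named when free of overlap, up to 3 per list and direction. Other per-library values, ranges and means, and the fold changes of Atg3, Atg4c, Atg4d, Atg5, Atg7 and Atg14, were chosen after their values were seen. Members and lists were chosen with earlier results of these data known. The 16 alternatives are in the closing section. Python 3.11.15, pandas 2.3.3 and matplotlib 3.10.9 handled tables and figures.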

Additional observations from a re-analysis of the deposited data

How the results depend on the processing

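No member, no wider pathway gene and no other gene passed limma's adjusted threshold in any of the 16 alternatives, which changed the pseudocount, the filter, the scaling, the weights, the method (voom on recovered reads) or the libraries used. The smallest limma adjusted p among members was 0.094 with library weights, for Map1lc3a. Those weights were 5.6 for SRT1720 2 and 0.489 to 1.299 for the other libraries, so this value leans on 1 library. The 6 members without overlap and the 15 named pathway genes kept their direction in every alternative that tested them. The median log2 fold change of the tested members stayed below 0, from −0.10 without both SRT1720 3 and Vehicle 3 to −0.36 at a mean of at least 5 TPM, where 10 members remained tested, 9 of them below 0 and 3 free of overlap, against 22.6% of all genes tested. Leaving out 1 library gave medians from −0.27 to −0.15, 20 to 25 members below 0, and 7 to 13 members free of overlap, against 24.0% to 32.9% of all genes, shares that grow by construction with fewer libraries. It was 16 without both SRT1720 1 and Vehicle 2, where 44.0% of all genes tested were free of overlap, and 14 without both SRT1720 3 and Vehicle 3, where 40% were. The median of all genes moved from 0.04 to −0.005 with median-of-ratios scaling. With the replicate number as a block, 0 members were called, the median was −0.18, and the adjusted p of Gabarapl1 was 0.392. The numbers do not pair the libraries: same-numbered libraries had correlations of deviations of −0.20, −0.26 and 0.79, while SRT1720 1 with Vehicle 2 gave 0.72 and SRT1720 2 with Vehicle 1 gave 0.68. The labels give no such pairing, and no crossed block was fitted. With 3 libraries a group and this spread, an unchanged call does not show that a member did not change.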
